A study of Homo sapiens with 12 samples.

Results

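The genes examined here encode menin, its partners on chromatin and the enzymes that work with it: MEN1 (menin), KMT2A (MLL1), KMT2B (MLL2), PSIP1 (LEDGF), the core subunits WDR5, RBBP5, ASH2L and DPY30, and DOT1L. They were taken by name, and every ATAC-seq peak that touched a gene body or the 10 kb on either side of it (hg38) was counted to its locus. The 9 loci held 479 of the 1199477 peaks used, in 84 of the 334907 regions that the merged peaks of all libraries formed. MOLM13 and MV4-11 are human acute myeloid leukaemia lines with a rearranged KMT2A, and OCI-AML3 is a line with mutant NPM1. Each was compared as untreated control and after exposure to VTP50469 at 500 nM for 16 h, a small molecule that occupies the pocket of menin that holds MLL1. There were 2 libraries in each of these 6 groups, and all cells had been frozen before their nuclei were tagged with the transposase Tn5. Mutant NPM1 is represented by 1 line, so that line and genotype cannot be told apart. Nothing in the labels says whether replicates were separate cultures, so p-values reflect only the spread among these libraries, which may be technical.

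Menin is a scaffold protein without enzyme activity of its own. It binds the amino-terminal part of MLL1 and of MLL2, and together with LEDGF, which reads methylated histone H3 lysine 36, it holds them at their target genes. The catalytic part of MLL1 and MLL2 methylates histone H3 lysine 4 and needs the core of WDR5, RBBP5, ASH2L and DPY30 to do so. In MLL1-rearranged leukaemia the amino-terminal part is kept and joined to a partner protein, several of which bring in DOT1L, the methyltransferase of histone H3 lysine 79. The question put to these data was how open the genes for this machinery were themselves, and whether the lines or VTP50469 altered that.

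An ATAC-seq peak is a stretch where Tn5 inserted more often than in its surroundings, and its fold compares the reads at the summit with the background around it in the same library. Because no value was scaled between libraries, the percentile of a peak, here the percent of the peaks of its own library with a lower fold, was used alongside it. Every library gave between 68670 and 145364 peaks, with between 30 and 57 of them in the 9 loci. The median peak had between 9 and 13 reads over its summit and no peak was called with fewer than 3, so weaker openness was not detectable at this depth and a stretch without a peak need not be closed. Total reads per library are unknown. Of 8 myeloid markers, SPI1, CEBPA, LYZ, FLT3 and PTPRC had a promoter peak in 12 of 12 libraries, MPO in 8, and CD33 and CSF1R in 6. Among T cell, B cell and erythroid markers, CD3E, MS4A1 and ALAS2 had none, CD3D and HBB had a peak in 1 library, CD79A in 7 and CD8A in 12.

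The promoters of MEN1, KMT2A, PSIP1 and WDR5 are printed because, of the promoters on record, their 300 bases held the most summits of called peaks. The window holds 12 of 12 summits for MEN1, 11 for KMT2A, 7 for PSIP1 and 5 for WDR5, the promoter with the lowest fold of the 9. Each sequence is from RefSeq (GRCh38.p14) and runs 5′ to 3′ from 250 bases before to 50 bases after a start site, and capitals mark the motifs named after the sequences.
MEN1 (chr11:64810502-64810801, minus strand): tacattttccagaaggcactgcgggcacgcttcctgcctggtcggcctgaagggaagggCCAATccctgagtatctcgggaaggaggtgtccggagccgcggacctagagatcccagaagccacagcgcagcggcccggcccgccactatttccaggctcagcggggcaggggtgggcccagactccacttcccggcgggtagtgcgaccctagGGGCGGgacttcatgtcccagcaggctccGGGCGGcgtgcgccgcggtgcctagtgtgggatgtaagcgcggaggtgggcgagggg
KMT2A (chr11:118436242-118436541, plus strand): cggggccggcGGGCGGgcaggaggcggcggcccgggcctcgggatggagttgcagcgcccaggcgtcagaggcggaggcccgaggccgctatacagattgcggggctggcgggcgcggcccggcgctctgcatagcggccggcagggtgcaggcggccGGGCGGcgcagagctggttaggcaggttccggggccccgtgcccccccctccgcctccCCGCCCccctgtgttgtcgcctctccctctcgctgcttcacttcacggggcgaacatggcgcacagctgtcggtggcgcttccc
PSIP1 (chr9:15510921-15511220, minus strand): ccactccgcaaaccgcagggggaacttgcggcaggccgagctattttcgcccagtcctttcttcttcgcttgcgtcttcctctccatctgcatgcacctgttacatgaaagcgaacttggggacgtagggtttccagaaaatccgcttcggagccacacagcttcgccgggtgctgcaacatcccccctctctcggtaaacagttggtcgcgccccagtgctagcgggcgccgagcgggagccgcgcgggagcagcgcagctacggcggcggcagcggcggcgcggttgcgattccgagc
WDR5 (chr9:134135832-134136131, plus strand): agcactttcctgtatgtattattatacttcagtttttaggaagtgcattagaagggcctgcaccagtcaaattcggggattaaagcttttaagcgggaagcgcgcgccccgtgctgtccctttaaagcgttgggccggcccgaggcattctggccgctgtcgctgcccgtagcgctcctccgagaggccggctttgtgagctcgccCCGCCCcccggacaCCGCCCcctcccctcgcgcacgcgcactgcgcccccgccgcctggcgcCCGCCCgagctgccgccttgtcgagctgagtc

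Promoter entries matched 6 of the 9 genes, those of KMT2B and RBBP5 being the other two. All 6 held more CpG dinucleotides than the median of 14 over 34961 promoters (quartiles 4 and 28). There were 36 in KMT2A, 48 in KMT2B, 33 in PSIP1 and 31 in WDR5. MEN1 with 25 and RBBP5 with 18 lay between the quartiles. Motifs were searched as letters on both strands. GGGCGG, the GC box of SP and KLF factors, was found in 4 of the 6 (2 matches in MEN1, 3 in KMT2A, 5 in KMT2B and 3 in WDR5) and in 45.0% of all promoters. CCAAT, the box bound by NF-Y, was present in MEN1 alone and in 34.6% of all promoters, and AAGATGGC of YY1 in KMT2B alone and in 2.89%. CCGGAAG of ETS factors, GCGCATGCG of NRF1, CACGTG (the E-box) and TGACGTCA (the CRE) were in none of the 6, and in 10.3%, 1.92%, 7.27% and 1.85% of all promoters. No motif overlapped another in the sequences printed. PSIP1 and RBBP5 held none of the 7.

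All 9 promoters were open in every library. A region within 1 kb of a start site was called in 12 of 12 libraries for each gene, against 54.3% of 19630 protein-coding genes. In order of the median fold over the libraries stood RBBP5 (15.0), MEN1 (14.4), ASH2L (14.2), PSIP1 (13.4), DPY30 (12.97), KMT2B (10.8), DOT1L (10.0), KMT2A (9.19) and WDR5 (7.46). The ranges of each pair of neighbours in this order overlapped. At the ends they did not, since the lowest RBBP5 value (12.5) lay above the highest of KMT2A (10.9) and of WDR5 (10.6).

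**Figure D1:**
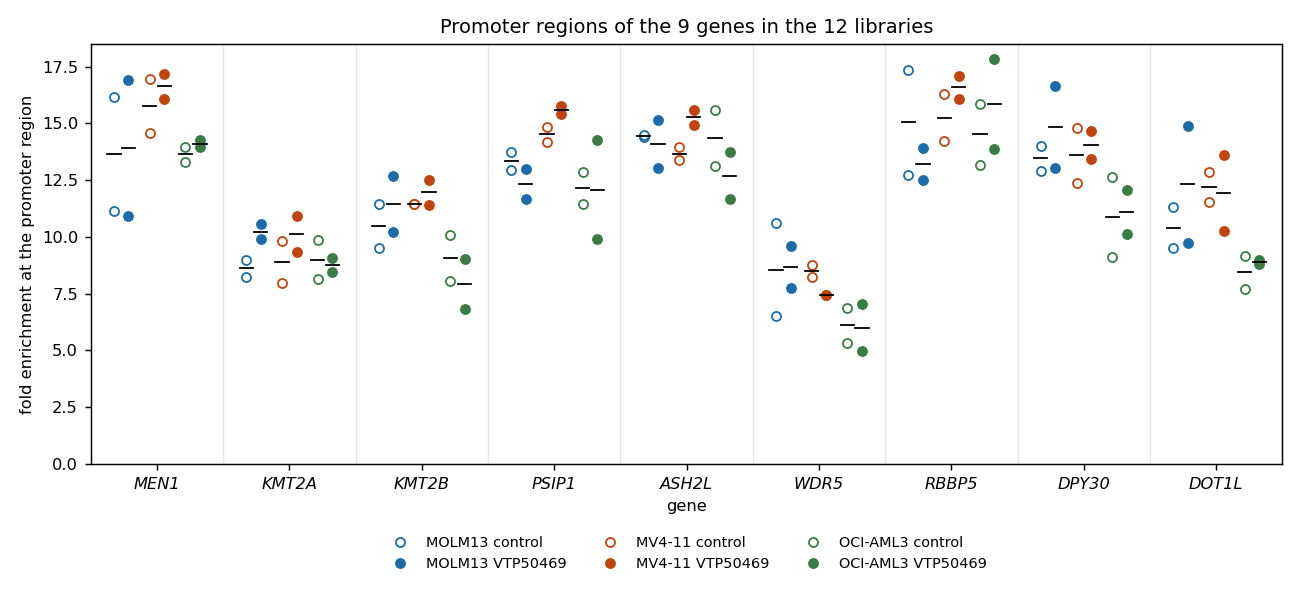
Fold enrichment at the promoter region of each gene (y axis, linear, from 0) in the 12 libraries; open circles are control and filled circles VTP50469 libraries, colours are lines, and the short bars are means of the 2 libraries of a group. RBBP5, MEN1 and ASH2L sit highest and WDR5 lowest, and in most genes the open and filled circles of a line overlap.

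By fold, menin itself had one of the stronger promoters. Its summits had 21 to 56 reads, and only WDR5 had a lower median (22.5, against 32 for MEN1). At MEN1 (chr11:64810297-64811149, the only region in its promoter window) the fold was 16.2 and 11.2 in MOLM13 controls and 10.9 and 16.9 in treated MOLM13, 14.6 and 17.0 against 16.1 and 17.2 in MV4-11, with 13.3 and 13.98 against 14.3 and 13.95 in OCI-AML3. These put it between the 91.7th and 99.6th percentile of its library. The 2 libraries of a MOLM13 group lay farther apart than the means of the 2 groups, and in all 3 lines the treated and control values overlapped. All 12 summits lay between 527 and 664 bp downstream of the outermost annotated start, at a second start site that RefSeq lists for the gene. MEN1 is short, with a body of 7.8 kb, and no region was called inside it that was not within 1 kb of a start site. Beyond its 3′ end lay the promoter of MAP4K2, a kinase gene, with a region called in 12 libraries.

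KMT2A, whose product is the methyltransferase that VTP50469 parts from menin, had a promoter weaker by fold than that of MEN1. Its median of summit reads was higher (44, against 32 for MEN1). The region chr11:118435886-118436883 had folds of 8.23 and 8.99 in MOLM13 controls and 9.89 and 10.6 in treated MOLM13. In MV4-11 they were 9.83 and 7.99 in controls and 10.9 and 9.31 after VTP50469, and in OCI-AML3 8.13 and 9.86 against 9.07 and 8.48. Both treated MOLM13 libraries were above both controls, and in the other lines the groups overlapped. The summits gathered between -448 and -121 bp from the start, with 28 to 76 reads. A separate, faint region at -0.82 kb was called in all MOLM13 and MV4-11 libraries and in 2 of 4 of OCI-AML3, with folds between 2.86 and 4.25.

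The paralogue KMT2B, which also binds menin, had its lowest values in OCI-AML3. Its promoter region (chr19:35716598-35718414) had folds of 9.52 and 11.5 in MOLM13 controls, 10.2 and 12.7 in treated MOLM13, 11.4 and 11.4 in MV4-11 controls and 12.5 and 11.4 in treated MV4-11. In OCI-AML3 the values were 8.06 and 10.1 in controls and 9.05 and 6.84 after treatment, and by percentile all 4 lay below the other 8 libraries, the nearest by 87.566 (OCI-AML3 control 2) against 87.569 (MV4-11 control 2). By fold the lines overlapped, since OCI-AML3 control 2 exceeded MOLM13 control 1. Such a separation by percentile was seen for 1 of the 39 regions of the loci called in at least 4 libraries, against 6.79% of 97139 regions. Although the pattern was ordered by line, the same region did not pass in the control contrasts given further on.

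PSIP1, the chromatin tether, had folds between 9.89 and 15.8 over the 12 libraries, with 30 to 77 summit reads. In MV4-11 both treated libraries (15.8 and 15.4) lay above both controls (14.8 and 14.2), and in the other lines the groups overlapped. The MV4-11 shift did not pass (0.17, limma adjusted p = 0.965). Of its 5 regions, 4 lay in the body of the gene and none of these was called in more than 2 libraries.

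Among the core subunits RBBP5, ASH2L and DPY30 had strong promoters by fold and WDR5 a weak one. RBBP5, a subunit that holds WDR5 and ASH2L together, had folds of 12.5 to 17.9. ASH2L, the partner of DPY30, had 11.7 to 15.6 and the most reads of the 9 promoters (53 to 109 per summit). DPY30 had 9.12 to 16.6, with every summit within 28 bp of the annotated start. WDR5, a WD-repeat protein that MLL1 contacts directly, had folds of 6.50 and 10.6 in MOLM13 controls, 7.75 and 9.58 in treated MOLM13, 8.24 and 8.74 against 7.45 and 7.46 in MV4-11, with 6.88 and 5.34 against 4.96 and 7.04 in OCI-AML3. Its percentile ran from 45.5 to 90.0. Both treated MV4-11 values were below both controls by a margin smaller than the spread of the MOLM13 libraries. The stronger region of the WDR5 locus was not its own promoter. It lay 29.8 kb downstream of the start (chr9:134164530-134165477), at RNU6ATAC, the gene of the U6atac small nuclear RNA of the minor spliceosome, with folds of 11.2 to 20.0.

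DOT1L, the methyltransferase of histone H3 lysine 79, had a promoter (chr19:2163526-2164327) with folds of 9.50 and 11.3 in MOLM13 controls and 9.73 and 14.9 in treated MOLM13. They were 11.5 and 12.9 against 13.6 and 10.3 in MV4-11, with 7.73 and 9.17 against 8.80 and 8.98 in OCI-AML3. Control and treated libraries overlapped in all 3 lines. A start site of the neighbour AP3D1 lies within 1 kb, and its peaks cannot be told apart from those of DOT1L. In the same way the WDR5 window holds a start site of WDR5-DT, a transcript on the other strand.

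Away from the promoters the loci differed in how many elements they held. Of the 84 regions, 13 lay in a promoter window of a member, 14 at the promoter of another gene, 38 elsewhere in a gene body, 10 in the upstream and 9 in the downstream flank. Exons and introns were not assigned, since no annotation of exons on this build was used here. By locus there were 19 regions at DOT1L, 18 at KMT2A, 11 at ASH2L, 9 at WDR5, 7 at KMT2B, 6 at DPY30, 5 each at PSIP1 and RBBP5, and 4 at MEN1. Regions called in every library numbered 20 (23.8%, against 6.97% of all regions), and they comprised 9 promoters of members, 7 promoters of other genes, 3 body regions and 1 flanking region. Another 30 were called in a single library, with a median of 7.5 summit reads where the regions called in 12 had 40. Body regions had a median fold of 5.21 and promoter regions 11.5.

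The body regions open in all 12 libraries were in ASH2L and DOT1L. Their values were seen before they were chosen for description, as were those of the other non-promoter regions named here, save those lost, gained or open in a single line. In ASH2L the region 29.25 kb into the gene (chr8:38134354-38135122) had folds of 11.6 and 10.3 in MOLM13 controls and 15.0 and 13.8 after VTP50469, but 18.2 and 15.3 in MV4-11 controls and 14.2 and 12.8 after it. In OCI-AML3 the values were 10.1 and 13.8 against 11.8 and 7.89. Thus MOLM13 was higher and MV4-11 lower in both treated libraries, and OCI-AML3 overlapped. The other ASH2L region, at 15.4 kb, had folds from 4.62 to 15.0.

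In DOT1L the constant element lay 63.6 kb from the start, near the 3′ end (chr19:2227210-2227890). Its fold was 7.41 and 7.06 in MOLM13 controls against 9.91 and 9.11 after VTP50469, and 8.74 and 8.36 against 11.3 and 11.8 in MV4-11. In OCI-AML3 it was 6.51 and 8.72 against 5.95 and 7.38. Both treated libraries were higher than both controls in MOLM13 and in MV4-11, and the groups overlapped in OCI-AML3. By percentile, 23.7% of 23338 regions were higher in this way in MOLM13 and 22.7% in MV4-11. The shift did not pass in MOLM13 (0.46, limma adjusted p = 0.958) or in MV4-11 (0.71, limma adjusted p = 0.79). Its differences from the OCI-AML3 shift did not pass either (0.63 for MOLM13 and 0.93 for MV4-11, limma adjusted p 0.889 and 0.899). The mean shift over the 3 lines did not pass (0.39 normal-score units, 95% interval -0.10 to 0.87, limma adjusted p = 0.83 over 23338 regions).

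**Figure D2:**
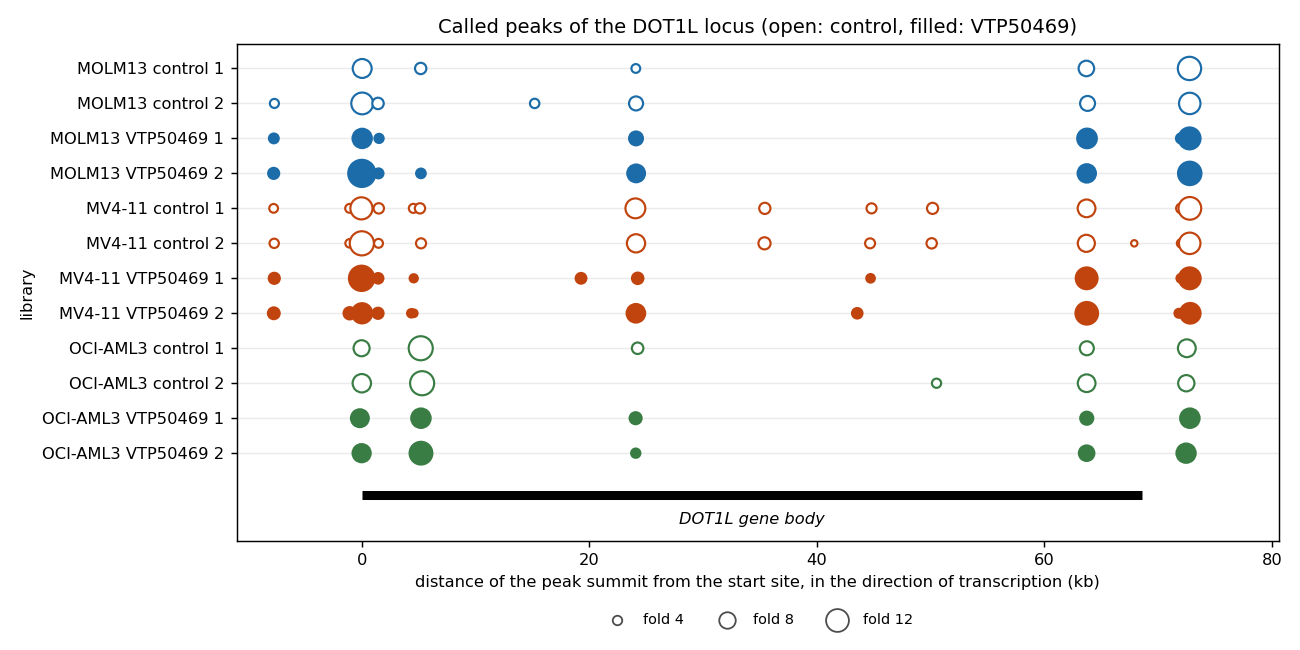
Called peaks of the DOT1L locus by library (y axis) and distance of the summit from the start site in kb (x axis, in the direction of transcription); open circles are control and filled circles VTP50469 libraries, the area grows with the fold, and the black bar is the gene body. The element 5.2 kb into the gene is large in the 4 OCI-AML3 libraries (folds 9.79 to 12.8) and small or missing in the others, while the promoter and the element at 63.6 kb appear in all 12.

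One element inside DOT1L was strong in a single line. The region 5.23 kb into the gene (chr19:2168917-2169403) had folds of 12.8 and 12.8 in OCI-AML3 controls and 9.79 and 11.9 after treatment, on 27 to 34 reads. MOLM13 had it in 1 control (5.005) and 1 treated library (4.06), and MV4-11 in both controls (4.43 and 4.32) and in neither treated library. All OCI-AML3 values lay above those of the other lines. Regions with the 4 OCI-AML3 libraries above the other 8 by percentile were 2 of the 39 considered, against 2.61%, the other one being 22.7 kb downstream of the KMT2B start and inside IGFLR1 (folds 7.85 to 10.3 in OCI-AML3 and 6.22 to 8.17 elsewhere). Within OCI-AML3 the treatment shift of the DOT1L element did not pass (shift -0.30, SE 0.47, limma adjusted p = 0.965 over 30982 regions; -0.55 to -0.052 without 1 library). MV4-11 in turn had 11 to 13 peaks in the DOT1L locus per library, against 5 to 7 in MOLM13 and 5 or 6 in OCI-AML3. The 4 MV4-11 libraries also had the longest peak lists. Per 10000 peaks the DOT1L values of MV4-11 (0.757 to 1.04) overlapped those of OCI-AML3 (0.529 to 0.852) and of MOLM13 (0.630 to 0.760).

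**Figure D3:**
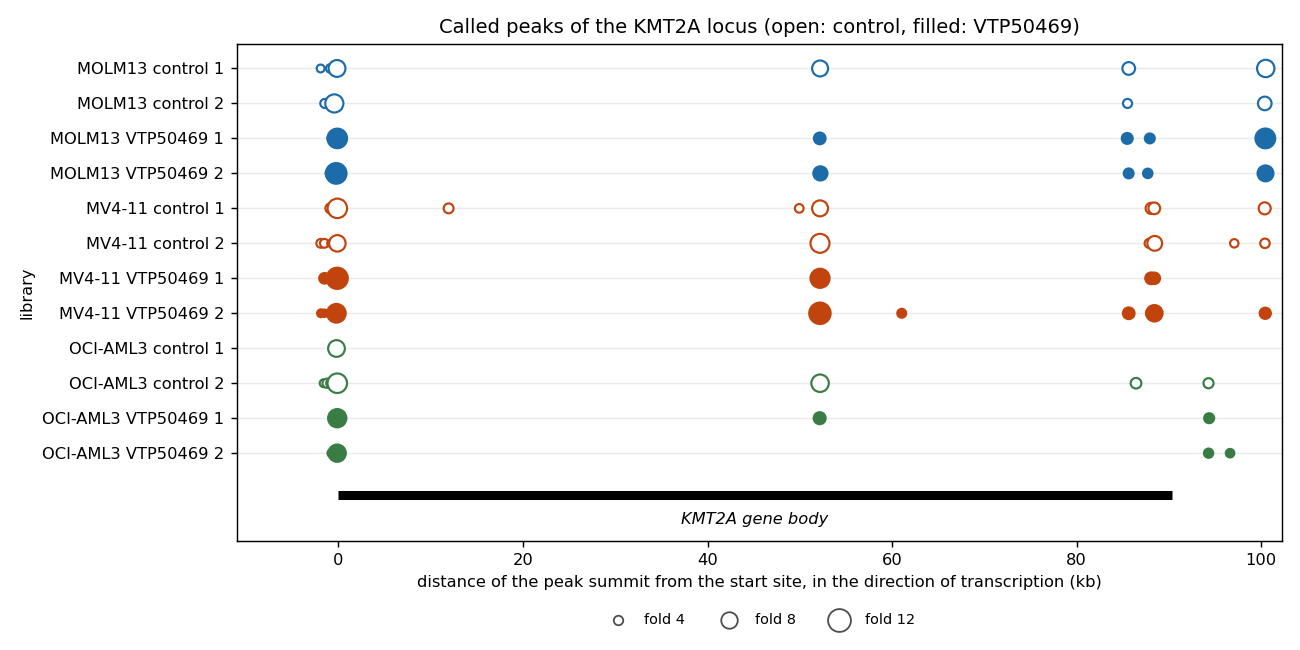
Called peaks of the KMT2A locus by library (y axis) and distance of the summit from the start site in kb (x axis); symbols as in the map of DOT1L. Apart from the promoter no element is called in all 12 libraries, and the elements from 85.6 to 88.5 kb are called mostly in MOLM13 and MV4-11.

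In KMT2A the body was sparse up to 52.2 kb from the start, where a region (chr11:118488577-118488805) was called in 3 libraries of MOLM13, all 4 of MV4-11 and 2 of OCI-AML3, with folds of 5.19 to 11.0. Towards the 3′ end 3 regions were called in the rearranged lines and in no OCI-AML3 library. Over the 9 loci 43 of the 84 regions (51.2%) had no OCI-AML3 peak, against 55.8% of all regions, and 12 (14.3%) were called in both rearranged lines without OCI-AML3, against 10.5%. One at 85.6 kb was called in all MOLM13 libraries and 1 of MV4-11 (folds 3.78 to 5.76), and one at 87.9 kb in the treated 2 of MOLM13 and all of MV4-11 (3.83 to 5.18). The third, at 88.5 kb (chr11:118524851-118525053), was called in the 4 MV4-11 libraries and in none other, with folds of 5.21 and 6.99 in controls and 5.05 and 7.93 after treatment. It was the only 1 of the 84 regions with that pattern, against 2.01% of all regions, and 0 regions had it in MOLM13 (0.124%) or OCI-AML3 (0.245%). Peaks do not tell the rearranged copy of KMT2A from the other copy, and the position of these regions against the breakpoint cluster was not analysed here. At the outer end of the 10 kb flank, at 100.4 kb and inside TMEM25, a region had folds of 6.28 to 9.99 in MOLM13. It had 4.01 to 5.39 in 3 libraries of MV4-11, and no peak in OCI-AML3. The merged region touched the locus only at its edge, and all of its summits lay beyond the flank.

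Counted over the 9 loci, 28 regions were called in MV4-11 only (33.3%, against 28.3% of all regions), 11 in OCI-AML3 only (13.1%, against 20.9%) and 3 in MOLM13 only (3.57%, against 17.1%). By percentile all 4 MOLM13 libraries exceeded the other 8 in 3 of the 39 regions (background 1.61%): the TMEM25 region, the promoter of LIN37 beyond KMT2B, and the shared promoter of SF3A2 and PLEKHJ1 beyond DOT1L. MV4-11 did so in 2 (background 16.2%), the KMT2A region at 88.5 kb and one at -5.77 kb from the start of RBBP5. Both met the minimum of 4 libraries only through MV4-11. For the KMT2A region this fixed its being higher, while the RBBP5 region was also called in 1 MOLM13 library (fold 4.54). The TMEM25 region likewise met that minimum only through MOLM13, being called in 3 MV4-11 libraries and in no OCI-AML3 library. No region had MOLM13 or MV4-11 below all others (background 1.72% and 0.485%). A library without a peak counted as lower. These counts come from ranks and carry no test.

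Among the controls the line contrasts were tested for the 20 regions of the loci that were called in all 12 libraries. None passed in any pair by limma on normal scores of the fold rank. For MOLM13 against MV4-11 there were 0 of 20, with 0.934% of 23338 regions lower and 0.189% higher in MOLM13, and 1 of 20 at an unadjusted p under 0.05 (15.2% of all regions). For MOLM13 against OCI-AML3 there were 0 of 20 (1.22% lower, 0.917% higher) and 1 unadjusted (17.4%), and for MV4-11 against OCI-AML3 0 of 20 (1.09% lower, 1.86% higher) and 2 unadjusted (20.3%). The smallest adjusted p was 0.0992, for the IGFLR1 region beyond KMT2B, which was lower in MV4-11 than in OCI-AML3 by limma (shift -1.14, SE 0.37). On reads over its summit the sign of this difference turned (0.12). The 9 promoters had shifts of 0.11 to 0.85 for MOLM13 minus MV4-11, of -0.10 to 0.83 for MOLM13 minus OCI-AML3 and of -0.79 to 0.46 for MV4-11 minus OCI-AML3, where the medians over all regions were 0.08, 0.00 and -0.07. With reads over the summit in place of the fold rank, limma called 2 of the 20 regions as higher in each contrast with OCI-AML3, against 5.44% of all regions for MOLM13 and 4.81% for MV4-11 (lower calls 0 of 20, against 6.29% and 5.26%). The SF3A2 promoter was higher in MOLM13 and in MV4-11, the LIN37 promoter in MOLM13 and the DOT1L promoter in MV4-11 (log2 differences 0.98, 1.27, 0.91 and 1.11, adjusted p 0.0133, 0.00387, 0.0205 and 0.0115).

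No region of the loci passed the test of strength for VTP50469. None passed in MOLM13 (0 of 24 tested in the loci, against 0% of 41518 regions), in MV4-11 (0 of 32, against 0% of 70124) or in OCI-AML3 (0 of 23, against 0% of 30982), and none passed for the mean of the 3 lines (0 of 20, against 0% of 23338; limma, smallest adjusted p over all regions 0.878, 0.739, 0.82 and 0.691). At an unadjusted p under 0.05 the loci had 1, 2, 0 and 1 regions, against 5.61%, 6.58%, 5.8% and 6.41% of all regions. Regions missed in any of the libraries fitted could not be tested for strength.

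**Figure D4:**
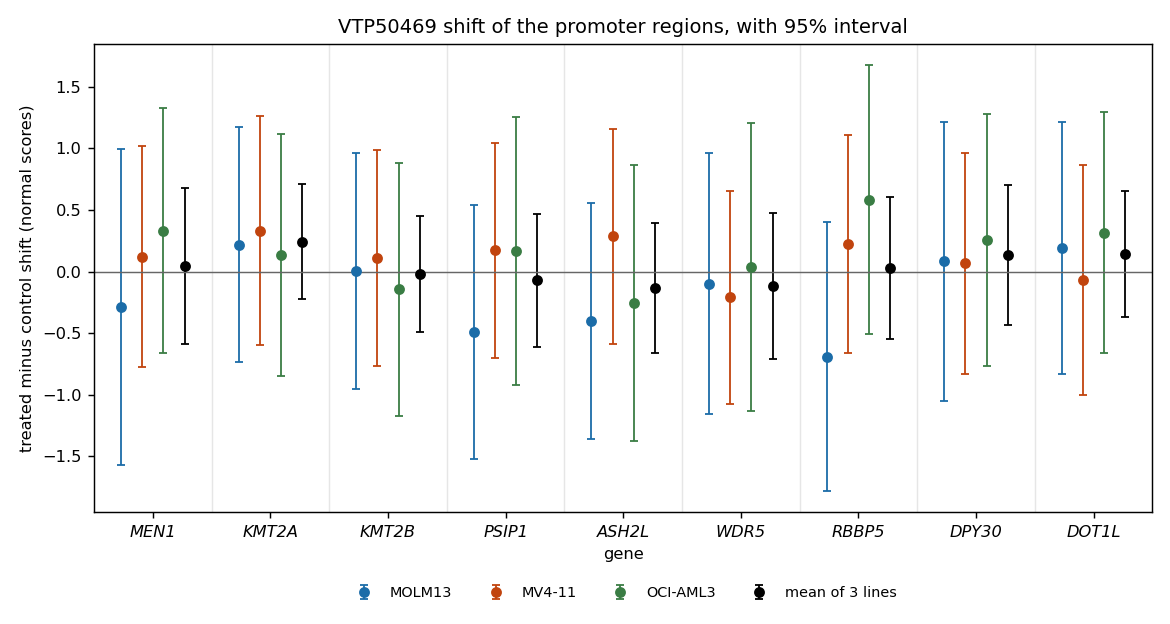
Treated minus control shift of each promoter region on the scale of normal scores (y axis) by gene (x axis), for each line and for the mean of the 3 lines; points are limma estimates and bars their 95% intervals. Every interval includes 0.

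The intervals show what sizes of shift could have been missed. For the mean of the 3 lines the median absolute shift over all regions was 0.196. Every promoter interval for that mean included shifts of this size in either direction. Over the 3 lines the shift of the MEN1 promoter was 0.05 (95% interval -0.59 to 0.68), that of KMT2A 0.24 (-0.22 to 0.71), of KMT2B -0.02 (-0.49 to 0.45) and of PSIP1 -0.07 (-0.61 to 0.47). In normal-score units, 1 is the standard deviation of the ranks in a library among the regions called in all libraries fitted. These regions numbered 41518 in MOLM13, 70124 in MV4-11, 30982 in OCI-AML3 and 23338 over the 3 lines. A unit is therefore not the same in each fit. For the core subunits the shifts were -0.12 for WDR5, 0.03 for RBBP5, -0.13 for ASH2L and 0.14 for DPY30, and for DOT1L 0.14, with intervals that ran from -0.71 to 0.70 at most. Within single lines the promoter shifts ran from -0.69 (RBBP5) to 0.22 (KMT2A) in MOLM13, from -0.21 (WDR5) to 0.33 (KMT2A) in MV4-11 and from -0.25 (ASH2L) to 0.58 (RBBP5) in OCI-AML3, with intervals from -1.78 to 1.67 at most. Without 1 library the RBBP5 shift ran from -1.11 to -0.27 in MOLM13 and from 0.042 to 1.12 in OCI-AML3. KMT2A had shifts of 0.22 in MOLM13 (0.13 to 0.31 without 1 library), 0.33 in MV4-11 (0.047 to 0.62) and 0.13 in OCI-AML3, and each of their 95% intervals included 0.

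The regions past an unadjusted p of 0.05 were all far from the adjusted threshold. The MAP4K2 promoter in the MEN1 locus had folds of 4.35 and 6.70 in MV4-11 controls against 7.82 and 9.56 after VTP50469, and of 6.08 and 5.24 against 6.46 and 9.91 in MOLM13. Both treated libraries exceeded both controls in each, and in OCI-AML3 the treated values (7.56 and 7.10) lay between the controls (9.28 and 5.79). Its shift by limma was 1.24 (SE 0.47, adjusted p = 0.739) in MV4-11 and 0.72 (SE 0.31, adjusted p = 0.762) over the 3 lines, and it ran from 0.69 to 1.80 and from 0.45 to 0.99 when 1 library was left out. A region at -7.69 kb from the start of DOT1L had folds of 3.62 and 3.93 in MV4-11 controls and 4.84 and 5.23 after treatment, and did not pass (shift 1.05, SE 0.39, limma adjusted p = 0.739). The ASH2L region at 15.4 kb had folds of 6.70 and 6.84 in MOLM13 controls against 8.85 and 14.7 (shift 1.096, SE 0.48, limma adjusted p = 0.878; 0.63 to 1.56 without 1 library).

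No difference in response between lines passed either. Of the 20 regions, 0 passed the F-test of the shift differences or any of the 3 pairwise contrasts (0% of 23338 regions each; limma, smallest adjusted p over all regions 0.623, 0.717, 0.457 and 0.32). Unadjusted, the F-test had 0 of 20 (6.08% of all regions) and MOLM13 minus MV4-11 had 1 (4.79%), the ASH2L region at 29.25 kb (difference of shifts 1.52, SE 0.67, limma adjusted p = 0.999). The other pairs had 0 (6.79% and 5.85%). By ranks alone, both treated MOLM13 libraries were above both controls in 6 of the 20 regions and below in 1 (background 23.7% and 11.6%). In MV4-11 8 were above and 2 below (22.7% and 13.8%), and in OCI-AML3 4 were above and 1 below (12.1% and 22.2%).

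Gains and losses of whole peaks were rare. Lost means peaks in the 2 controls of a line with none after VTP50469, and gained the reverse. MOLM13 had 0 lost and 0 gained of 47 regions (background 1.3% and 3.22%), OCI-AML3 0 and 0 of 49 (2.57% and 1.32%), and MV4-11 3 lost and 1 gained of 72 (2.75% and 1.92%). All 3 losses were in the body of DOT1L, at 5.19, 35.45 and 50.2 kb from the start, with control folds of 4.43 and 4.32, 4.94 and 5.44, and 4.90 and 4.48 on 11 to 17 reads. The first of them is the element that was strong in OCI-AML3. The gain was a faint shoulder of the RBBP5 promoter, with folds of 3.42 and 3.30 on 12 reads each. Leaving out a library asks for fewer libraries to share the state, and the counts in MV4-11 then ran from 4 to 13 lost (the most without control replicate 1) and from 2 to 8 gained (the most without treated replicate 1). In MOLM13 they reached 4 lost (without control replicate 1) and 6 gained (without treated replicate 2), and in OCI-AML3 10 lost (without control replicate 1) and 2 gained.

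**Figure D5:**
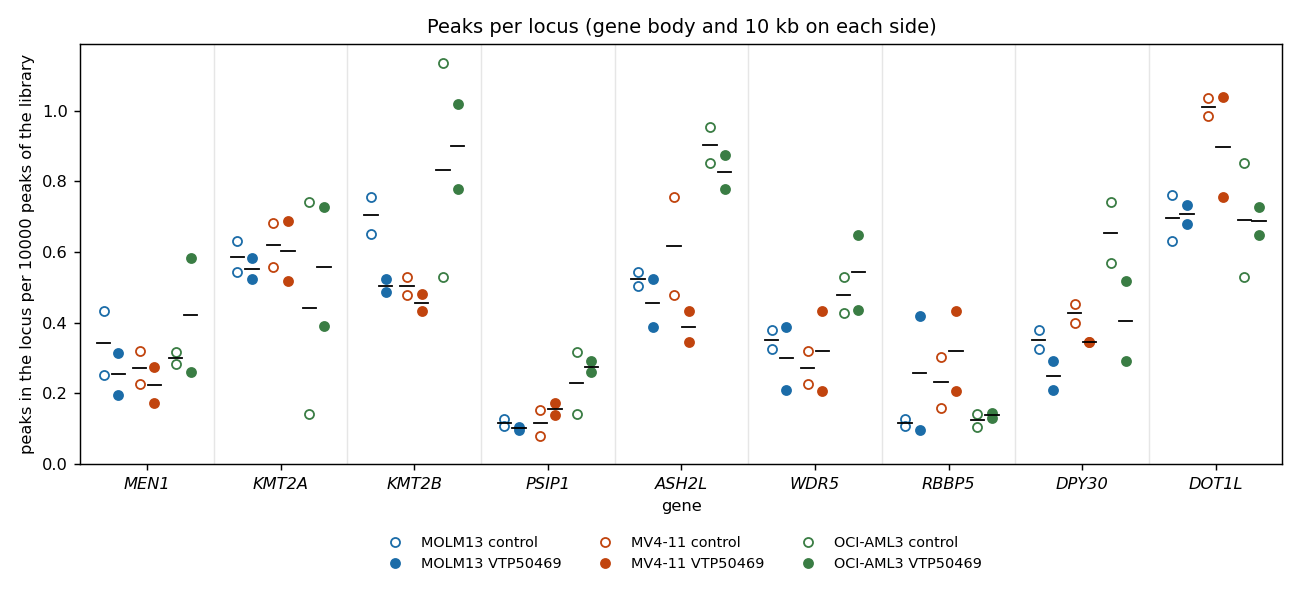
Peaks in each locus per 10000 peaks of the library (y axis, linear, from 0) by gene (x axis); open circles are control and filled circles VTP50469 libraries, with bars at the means of the 2 libraries of a group. DPY30 is the gene whose filled circles lie below its open circles in all 3 lines, which did not hold in MOLM13 or MV4-11 when merged regions were counted.

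Relative to the length of the peak list, both treated libraries had fewer DPY30 peaks than both controls in each line. When merged regions were counted, this held in OCI-AML3 only. In MOLM13 it had 0.378 and 0.326 peaks per 10000 in controls and 0.209 and 0.291 after treatment, in MV4-11 0.399 and 0.454 against 0.346 and 0.344, and in OCI-AML3 0.568 and 0.741 against 0.519 and 0.291. The underlying counts were 3 and 3 against 2 and 3, 5 and 6 against 4 and 5, and 4 and 7 against 4 and 2, and these overlapped or met in each line. Several peaks could fall in 1 region, and 3 of the 6 regions of the locus lay at the promoter of MEMO1. Counted as regions there were 3 and 2 against 2 and 3 in MOLM13 and 4 and 4 against 4 and 5 in MV4-11. OCI-AML3 had 3 and 5 in controls and 3 and 2 after treatment. Per 10000 peaks MV4-11 turned higher after treatment, MOLM13 overlapped, and OCI-AML3 stayed lower (0.426 and 0.529 against 0.389 and 0.291). The count of regions was added after the values were seen, and its share over all protein-coding loci was not computed. Loci with both treated libraries below both controls were 3 of 9 in MOLM13 (KMT2B, PSIP1 and DPY30, against 26.1% of 18661 protein-coding loci), 2 in MV4-11 (ASH2L and DPY30, 18.5%) and 1 in OCI-AML3 (11.7%). None of the 9 was higher in both treated libraries (10.9%, 14.5% and 16.1%). In MOLM13 the treated lists were the longer ones, with 95561 and 103034 peaks against 79373 and 92144, and the part of this in the values per 10000 was not tested. Among the 60000 strongest peaks of each library DPY30 did not separate in MV4-11 or OCI-AML3, where 0 loci were lower.

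The other genes of the COMPASS family of histone H3 lysine 4 methyltransferase complexes were taken from a list and are the catalytic subunits KMT2C, KMT2D, SETD1A and SETD1B and the subunits CXXC1, WDR82, HCFC1, HCFC2, KDM6A, PAXIP1, PAGR1 and NCOA6. Of these 12 promoters, 10 were called in all libraries, with KMT2C in 11 and SETD1B in 7. Their median folds ran from 4.37 (SETD1B) and 6.43 (HCFC1), below the lowest of the 9 genes, to 13.8 (CXXC1). Their loci held 158 regions, 28 of them (17.7%) open in every library. The treatment contrast passed for 0 of 37 tested regions in MOLM13, 0 of 48 in MV4-11, 0 of 32 in OCI-AML3 and 0 of 28 over the 3 lines, and the line contrasts of the controls passed for 0 of 28 (limma on normal scores, adjusted over all regions).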

How the data were processed

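ATAC-seq was measured in 12 libraries, 2 per line and treatment, grouped by their titles. Per the labels, the authors trimmed reads with Trimmomatic 0.33, aligned them to hg38 with Bowtie 1.1.2 and called peaks in each library on its own with MACS2 2.1.0. The peak threshold, whether duplicates were kept and whether cut sites were shifted are not given in the sources used here. Each deposited peak carries a fold enrichment (a ratio of reads over the summit to the local background, each with 1 read added), a −log10 p, a −log10 q and a score of 10 times the −log10 q, as the authors' caller wrote them, with no scaling between libraries.

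Peaks on chromosomes 1 to 22 and X were merged where they overlapped by 1 bp and assigned to RefSeq gene bodies (GRCh38.p14) with 10 kb on each side. Promoters were regions within 1 kb of a start site. Where several peaks of a library fell in a region, the one with the highest fold stood for it. Summit reads were recovered from fold and p within a tolerance of 0.001. Regions called in all libraries fitted were ranked by fold within each library. These ranks, as normal scores, were fitted by limma 3.58.1 (R 4.3.3). Benjamini-Hochberg adjustment was over the same regions, at a threshold of 0.05. The scripts were tested on simulated data. Some lymphoid and erythroid markers are not reported here. The members and lists were chosen with earlier results of these data known. The text names all 9 promoters, regions lost, gained or open in 1 line, and other regions chosen after their values were seen. Alternatives were other measures (reads, −log10 q, log2 fold), peaks with −log10 q of at least 5, an overlap of 50 bp, flanks of 5 kb, promoters of 2 kb, the 60000 strongest peaks, a replicate block and each library left out, and merged regions per locus, added after the values were seen.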

Additional observations from a re-analysis of the deposited data

Results flagged for a closer look

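ASH2L held 2 regions in which both treated libraries lay, by percentile, on one side of both controls in MOLM13 and on the other side in MV4-11. In its promoter (chr8:38104795-38106047) the MOLM13 percentiles were 98.7 and 97.9 in controls and 96.6 and 97.0 after VTP50469, a mean difference of -1.53 points. In MV4-11 they were 95.1 and 93.2 against 95.6 and 97.4, a difference of 2.35 points. By fold the treated MOLM13 libraries (13.1 and 15.1) lay on either side of the controls (14.4 and 14.5), so the promoter separated in that line by percentile only. In the gene body 29.25 kb from the start the directions were the other way round, with 94.5 and 88.9 against 98.7 and 95.2 in MOLM13 (5.21 points) and 99.4 and 96.7 against 94.4 and 92.9 in MV4-11 (-4.42 points). The separation itself was not tested, and the difference of shifts at 29.25 kb did not pass (1.52, SE 0.67, limma adjusted p = 0.999). Opposite separations in 2 lines were met in 2 of the 20 regions of the loci and in 15.1% of 23338 regions.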

How the results depend on the processing

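Every treatment contrast and every shift difference passed for 0 regions of the 9 loci under each alternative run. Over all regions the 3 pairwise shift differences and the F-test passed for between 0 and 1 region when 1 library was left out. Among controls the regions passing numbered 262, 499 and 687 for MOLM13 against MV4-11, MOLM13 against OCI-AML3 and MV4-11 against OCI-AML3. On quantile-normalised reads they were 1088, 2738 and 2350, and with −log10 q of at least 5 they were 94, 240 and 210. On −log10 q ranks the second was 1126, and the third had 479 regions lower and 402 higher in MV4-11. Counts that moved little are not listed. With the replicate block the first 2 were 156 and 328, and under the block no other count moved by as large a factor. Over regions, the control difference between replicates 1 and 2 was set against the treated difference. These differences correlated by 0.00786 in OCI-AML3, 0.0204 in MV4-11 and 0.0362 in MOLM13, so the numbers were not taken as pairs. Without 1 library the ranges were 1 to 291, 61 to 593 and 34 to 758, the lowest without MV4-11 control replicate 2, OCI-AML3 control replicate 1 and MV4-11 control replicate 2; where this left 1 library in a group, it was assumed to vary like the others. For the loci, 2 regions passed in each contrast with OCI-AML3 on reads and 1 in each on −log10 q ranks, where the SF3A2 promoter had differences of 0.98 and 1.32 from MOLM13. The cause was not tested.

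Peaks with −log10 q of at least 5 left 47 of the 84 regions, with 0 in MOLM13 only, 13 in MV4-11 only (2 of them in all 4 libraries) and 1 in OCI-AML3 only, and 0 gained in MV4-11. An overlap of 50 bp gave 6 regions in MOLM13 only and 1 gained in MOLM13. By peaks per locus, the stricter −log10 q gave 2 loci higher and 1 lower in treated MV4-11 and 0 lower in OCI-AML3. Merged regions in place of peaks, a count chosen after seeing the data, gave 1 locus higher (DPY30) and 1 lower (DOT1L) in MV4-11. Flanks of 5 kb gave 5 loci lower in MOLM13. The 60000 strongest peaks gave 1 higher and 1 lower in MOLM13, 1 higher and 0 lower in MV4-11, and 0 lower in OCI-AML3. For the stricter −log10 q, the merged regions, the flanks of 5 kb and the 60000 strongest peaks, shares over all protein-coding loci were not computed. These counts of loci therefore have no background to be set against. Without 1 library, MOLM13 had from 0 to 4 regions lost and 1 to 6 gained, MV4-11 from 4 to 13 lost and 2 to 8 gained, and OCI-AML3 from 0 to 10 lost and 1 to 2 gained.

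The IGFLR1 region turned to 0.12 on reads, and the mean shift of the RBBP5 promoter to -0.10 on reads and to -0.10 on −log10 q ranks. Without 1 library the mean promoter shifts ran from -0.33 to 0.062 for ASH2L, -0.0043 to 0.29 for DOT1L, -0.098 to 0.37 for DPY30, 0.14 to 0.35 for KMT2A, -0.14 to 0.098 for KMT2B, -0.23 to 0.33 for MEN1, -0.26 to 0.12 for PSIP1, -0.16 to 0.21 for RBBP5 and -0.30 to 0.061 for WDR5, and from -0.82 to 0.31 for ASH2L in OCI-AML3. Depth limits the weak regions, and the comparison of KMT2A on either side of its breakpoints was not run.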
